A study of Homo sapiens with 8 samples.

Results

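The Notch receptors NOTCH1, NOTCH2 and NOTCH3, the ligands JAG1, JAG2 and DLL1 and the target genes HES1, HEY1 and HEYL were followed in 2 established human glioblastoma cell lines after silencing of the kinase LKB1. These 9 genes were taken by symbol from a table of 18787 gene symbols, and 8 of them were among the 14282 genes with enough signal to be tested, HEYL being the exception. They were selected on their values in these same comparisons, which were already known, so their levels and differences are given as a description, with no test. The groups were T98 cells with LKB1 siRNA, T98 cells with control siRNA, U87 cells with LKB1 siRNA and U87 cells with control siRNA, with 2 libraries in each. All 4 groups were transfected, and all RNA was taken 72 h afterwards. The labels do not say whether the 2 libraries of a group came from separate transfections, so a p-value reflects no more than how these samples vary, and that variation may be technical. Silencing was transient, in cultured lines.

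Notch signalling runs between touching cells. A ligand of the Jagged or Delta-like family on a cell binds a Notch receptor on its neighbour, and proteases (ADAM enzymes, then gamma-secretase) cut the receptor and free its intracellular part. That part enters the nucleus, joins the DNA-binding protein RBPJ and a Mastermind coactivator, and switches on HES and HEY genes, which encode transcriptional repressors. In glioma the pathway is best known for its activity in stem-like cells. In the results, levels are normalised values, that is, reads adjusted by the authors to a common library size, and differences are on the log2 scale of the value plus 1. Because these are bulk libraries, fewer cells expressing a gene and less of its RNA per cell cannot be told apart.

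RBPJ is known to bind the letters TGGGAA, and HES1 is a textbook example of a gene with such sites close to its start. The 250 bases before the start were read from the RefSeq promoter table (GRCh38.p14) for the 7 members it holds, and TGGGAA was searched on both strands, where the other strand reads TTCCCA. At least 1 match was found in 20.8% of the 35116 promoters of the table and at least 2 in 2.9%. HES1 and HEYL had 2 matches each. NOTCH1, NOTCH2, NOTCH3, JAG1 and JAG2 had none, and DLL1 and HEY1 had no entry. HES1 and HEYL are shown as target genes with matches, and NOTCH3 as a receptor without, because its values differed most between the lines' knockdowns. Capitals mark each match, and all sequences run towards the start of transcription.
HES1: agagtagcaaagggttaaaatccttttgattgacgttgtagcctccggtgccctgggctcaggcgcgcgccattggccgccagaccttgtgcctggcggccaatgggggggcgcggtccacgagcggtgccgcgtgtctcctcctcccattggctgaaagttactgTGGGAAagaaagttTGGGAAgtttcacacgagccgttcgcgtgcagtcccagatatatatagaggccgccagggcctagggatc
HEYL: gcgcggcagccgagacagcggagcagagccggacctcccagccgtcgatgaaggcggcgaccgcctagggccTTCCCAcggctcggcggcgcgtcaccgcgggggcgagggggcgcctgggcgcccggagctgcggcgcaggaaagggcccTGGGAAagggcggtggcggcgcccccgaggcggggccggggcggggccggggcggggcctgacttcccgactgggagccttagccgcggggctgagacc
NOTCH3: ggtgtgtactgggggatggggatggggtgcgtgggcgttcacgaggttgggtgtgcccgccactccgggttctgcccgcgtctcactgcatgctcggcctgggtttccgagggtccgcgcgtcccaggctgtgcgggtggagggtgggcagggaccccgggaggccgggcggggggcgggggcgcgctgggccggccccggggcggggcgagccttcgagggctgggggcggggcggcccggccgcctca
The HES1 stretch is chr3:194135898-194136147 on the plus strand, with matches starting 84 and 70 bases before the start, both on the gene's own strand. The HEYL stretch is chr1:39639644-39639893 on the minus strand, with a match 178 bases before the start on the opposite strand and another 99 bases before it on the gene's own strand. The NOTCH3 stretch is chr19:15200996-15201245 on the minus strand. These matches describe the letters only, and binding was not measured.

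The recovered depth was 25234334 to 38031734 reads per library, lowest in U87 LKB1 siRNA on lane 2 and highest in U87 LKB1 siRNA on lane 5. A library of each group ran on sequencing lane 2, and its partner ran on lane 4 (T98) or lane 5 (U87). Over all genes, the lane difference inside a group had an SD of 0.86 to 0.89, so differences of the members are given lane by lane. STK11, which encodes LKB1, was lower in LKB1 siRNA libraries in all 4 lane pairs, by log2 differences of −2.55 and −1.79 in T98 and of −2.76 and −2.40 in U87. Of the glial markers, VIM and CD44 were abundant in every library, GFAP lay between 1.85 and 50.7, and SOX2 and S100B were at or near 0, with highest values of 2.89 and 3.48.

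Among the receptors, NOTCH3 was lower with LKB1 siRNA in T98 and higher in U87, on each lane of both lines. NOTCH3 (NM_000435, chromosome 19, 15270444 to 15311792, minus strand, hg19) encodes a receptor known from smooth muscle of small arteries and from tumours. In T98, NOTCH3 values were 81.4 on lane 2 and 297 on lane 4 with LKB1 siRNA, against 261 on lane 2 and 708 on lane 4 with control siRNA. In U87, NOTCH3 values were 779 on lane 2 and 2296 on lane 5 with LKB1 siRNA, against 567 on lane 2 and 1657 on lane 5 with control siRNA. The 2 groups of each line overlapped, because the lane 2 libraries were the lower of every pair. Within lanes the NOTCH3 log2 difference was −1.67 and −1.25 in T98 and 0.46 and 0.47 in U87. The other lane exceeded lane 2 by 1.86 in T98 LKB1 siRNA, 1.44 in T98 control siRNA, 1.56 in U87 LKB1 siRNA and 1.55 in U87 control siRNA, and its part in the result was not tested.

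NOTCH1, the receptor best known from T-cell leukaemia, was higher with LKB1 siRNA in both U87 lanes and in 1 of the 2 T98 lanes. In U87, NOTCH1 (NM_017617, chromosome 9, 139388896 to 139440238, minus strand, hg19) was at 1155 on lane 2 and 1125 on lane 5 with LKB1 siRNA, against 594 on lane 2 and 905 on lane 5 with control siRNA. Those groups did not overlap, and the within-lane log2 differences were 0.96 and 0.31. In T98, NOTCH1 was at 547 on lane 2 and 840 on lane 4 with LKB1 siRNA, against 548 on lane 2 and 523 on lane 4 with control siRNA. The T98 groups overlapped, since the lane 2 pair was level and only the lane 4 LKB1 siRNA library stood higher, by 0.68.

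NOTCH2, a receptor with broad roles from liver to B cells, had the highest level of the members. In T98, NOTCH2 (NM_001200001, chromosome 1, 120454176 to 120612317, minus strand, hg19) was at 6827 on lane 2 and 9306 on lane 4 with LKB1 siRNA, against 12680 on lane 2 and 10310 on lane 4 with control siRNA. Both LKB1 siRNA libraries lay under both controls, with differences of −0.89 on lane 2 and −0.15 on lane 4. In U87, NOTCH2 was at 15620 on lane 2 and 22020 on lane 5 with LKB1 siRNA, against 12490 on lane 2 and 23580 on lane 5 with control siRNA, with overlapping groups and differences of 0.32 and −0.10. NOTCH2NL, a partial copy of NOTCH2 with near-identical sequence, was at 856 to 1975 over the 8 libraries, and its log2 differences were −0.22 and 0.10 in T98 and 0.44 and 0.05 in U87. The sources used here do not say how reads were split between NOTCH2 and NOTCH2NL, so the level of NOTCH2 is uncertain to that extent.

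**Figure D1:**
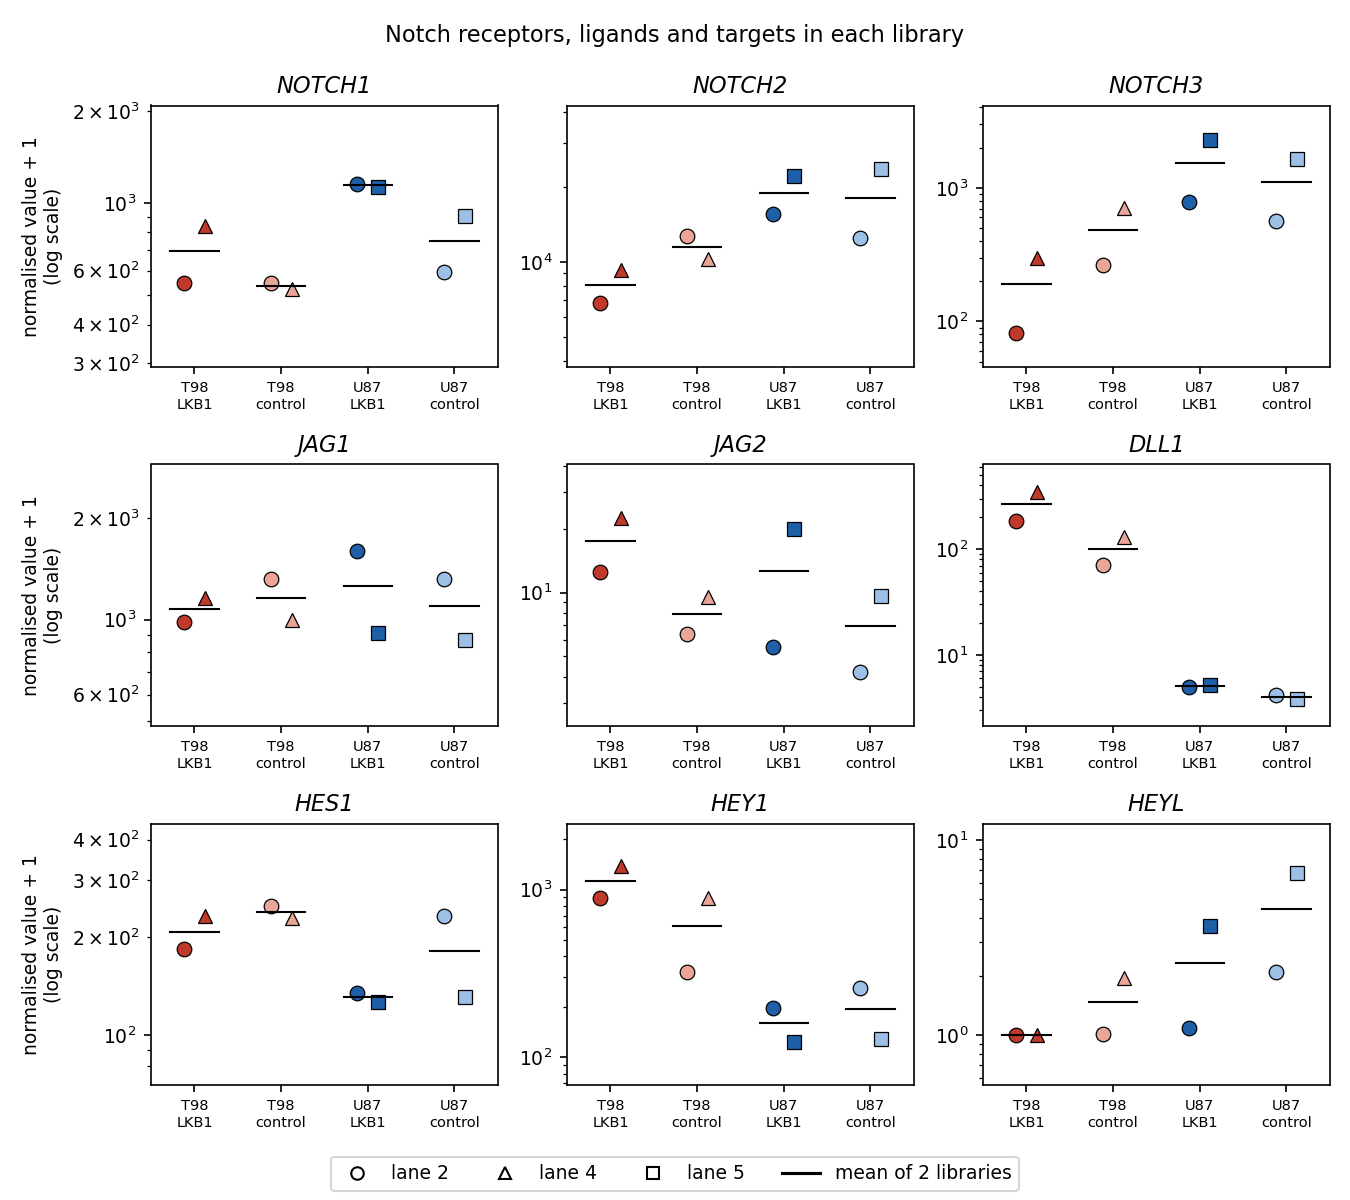
Normalised values (vertical, log scale, reads at a common library size) plus 1 of the 9 members, a panel per gene. Each point is a library, with its lane given by the marker, bars are the mean of 2 libraries, and groups run from T98 LKB1 siRNA to U87 control siRNA. DLL1 is near the bottom of its range in all 4 U87 libraries (2.86 to 4.23), and NOTCH3 differs between the lanes of every group.

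Per kilobase of transcript, NOTCH2 was the main receptor transcript in every library. Of the per-kilobase sum of the 3 receptors, NOTCH2 made up between 82.1%, in U87 LKB1 siRNA on lane 5, and 92.2%, in T98 control siRNA on lane 2. NOTCH3 made up 1.56% and 4.02% in T98 LKB1 siRNA (lanes 2 and 4), against 2.78% and 8.63% in T98 control siRNA. In U87, the NOTCH3 share was 6.25% and 12.5% with LKB1 siRNA (lanes 2 and 5), against 5.90% and 8.93% with control siRNA. NOTCH1 made up 9.10% and 9.88% in T98 LKB1 siRNA, against 5.06% and 5.54% in T98 control siRNA. In U87, the NOTCH1 share was 8.05% and 5.33% with LKB1 siRNA, against 5.37% and 4.24% with control siRNA. For NOTCH1 the T98 groups did not overlap as a share while they overlapped as a level, and the U87 groups overlapped as a share while they did not overlap as a level.

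**Figure D2:**
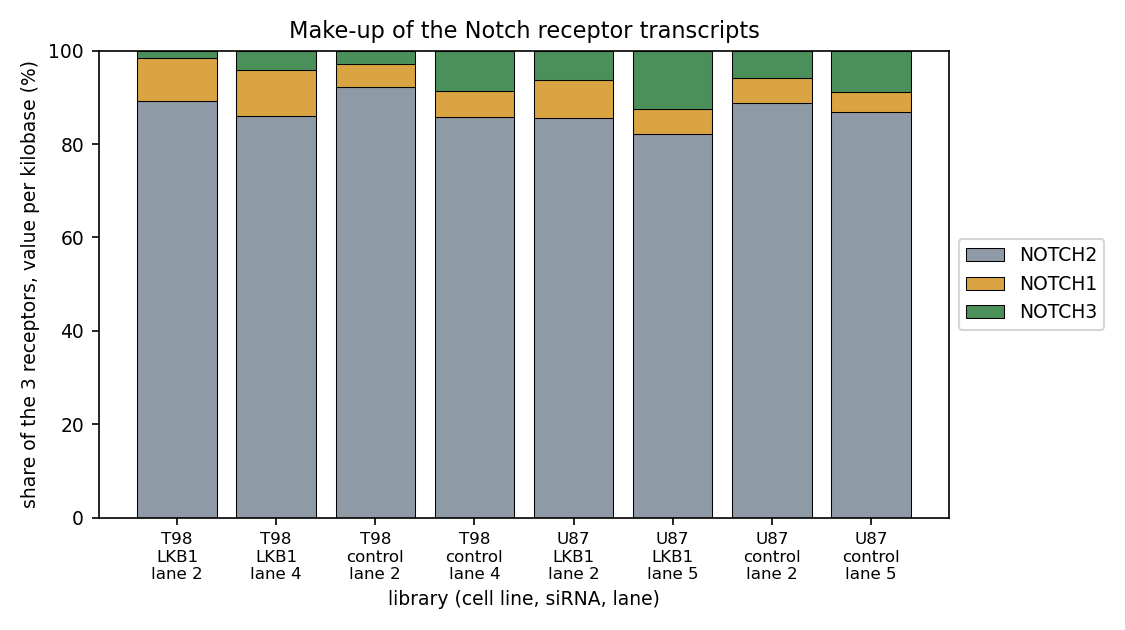
Share (vertical, percent) of the per-kilobase sum of NOTCH1, NOTCH2 and NOTCH3 held by each receptor, with a stacked bar for each of the 8 libraries. NOTCH2 fills 82.1% to 92.2% of every bar, and the NOTCH3 part is smallest in T98 LKB1 siRNA on lane 2 (1.56%).

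Among the ligands, DLL1 stood out in T98. DLL1 (NM_005618, chromosome 6, 170591294 to 170599697, minus strand, hg19) encodes a Delta-like ligand that activates Notch on the neighbouring cell. DLL1 values in T98 were 184 on lane 2 and 349 on lane 4 with LKB1 siRNA, against 69.4 on lane 2 and 128 on lane 4 with control siRNA. Both LKB1 siRNA libraries lay above both controls, and the within-lane log2 differences of 1.39 and 1.44 were close to each other. In reads this was 161 against 65 on lane 2, a ratio of 2.65 (95% exact interval 1.97 to 3.59), and 375 against 135 on lane 4, a ratio of 2.72 (2.23 to 3.34), where intervals cover counting error only. In U87, DLL1 had 3 and 5 reads with LKB1 siRNA, against 3 and 3 with control siRNA, too few for a fold.

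JAG2, a Jagged ligand, was near the detection limit. JAG2 (NM_002226, chromosome 14, 105607318 to 105635161, minus strand, hg19) had 10 and 23 reads in T98 LKB1 siRNA (lanes 2 and 4), against 5 and 9 in T98 control siRNA. In U87 it had 3 and 22 reads with LKB1 siRNA (lanes 2 and 5), against 3 and 9 with control siRNA. The LKB1 siRNA library had more reads in 3 of the 4 lane pairs. The ratio was 2.14 (95% exact interval 0.666 to 7.97) in T98 on lane 2 and 2.51 (1.12 to 6.15) in T98 on lane 4. In U87 on lane 5 it was 2.17 (0.96 to 5.35). These intervals cover counting error only and are no test. At this depth a JAG2 difference stays uncertain in every pair.

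JAG1, the Jagged ligand mutated in Alagille syndrome, was the abundant ligand of both lines and differed little between siRNAs. In T98, JAG1 (NM_000214, chromosome 20, 10618332 to 10654694, minus strand, hg19) was at 986 on lane 2 and 1159 on lane 4 with LKB1 siRNA, against 1317 on lane 2 and 997 on lane 4 with control siRNA. In U87 it was at 1601 on lane 2 and 910 on lane 5 with LKB1 siRNA, against 1323 on lane 2 and 872 on lane 5 with control siRNA. Groups overlapped in both lines, with opposite signs on the T98 lanes (−0.42 and 0.22) and small positive differences in U87 (0.27 and 0.06).

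Among the target genes, HEY1 was higher with LKB1 siRNA on both T98 lanes and HES1 was not. HEY1 (NM_001040708, chromosome 8, 80676245 to 80680098, minus strand, hg19) encodes a repressor known, in mouse, from heart and blood vessel development. In T98, HEY1 was at 889 on lane 2 and 1379 on lane 4 with LKB1 siRNA, against 324 on lane 2 and 888 on lane 4 with control siRNA. The groups met at 889 and 888 without overlapping, and the within-lane log2 differences were 1.45 and 0.63. In U87, HEY1 was at 196 on lane 2 and 123 on lane 5 with LKB1 siRNA, against 257 on lane 2 and 128 on lane 5 with control siRNA, with overlapping groups and differences of −0.39 and −0.06.

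HES1 (NM_005524, chromosome 3, 193853931 to 193856401, plus strand, hg19) encodes the repressor that, in mouse, holds neural progenitors undifferentiated. In T98, HES1 was at 184 on lane 2 and 231 on lane 4 with LKB1 siRNA, against 248 on lane 2 and 228 on lane 4 with control siRNA. In U87, HES1 was at 134 on lane 2 and 125 on lane 5 with LKB1 siRNA, against 231 on lane 2 and 130 on lane 5 with control siRNA. In both lines the lower value with LKB1 siRNA came from lane 2 (−0.43 in T98 and −0.78 in U87), while the other lane was nearly level (0.02 and −0.05). HEYL, the third HEY family member (NM_014571, chromosome 1, 40089103 to 40105348, minus strand, hg19), had 0 and 0 reads in T98 LKB1 siRNA, against 0 and 1 in T98 control siRNA, and 0 and 3 in U87 LKB1 siRNA, against 1 and 6 in U87 control siRNA. The promoters with 2 matches shown above thus belong to HES1, at 125 to 248 over the 8 libraries, and to HEYL, at 6 reads or fewer.

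**Figure D3:**
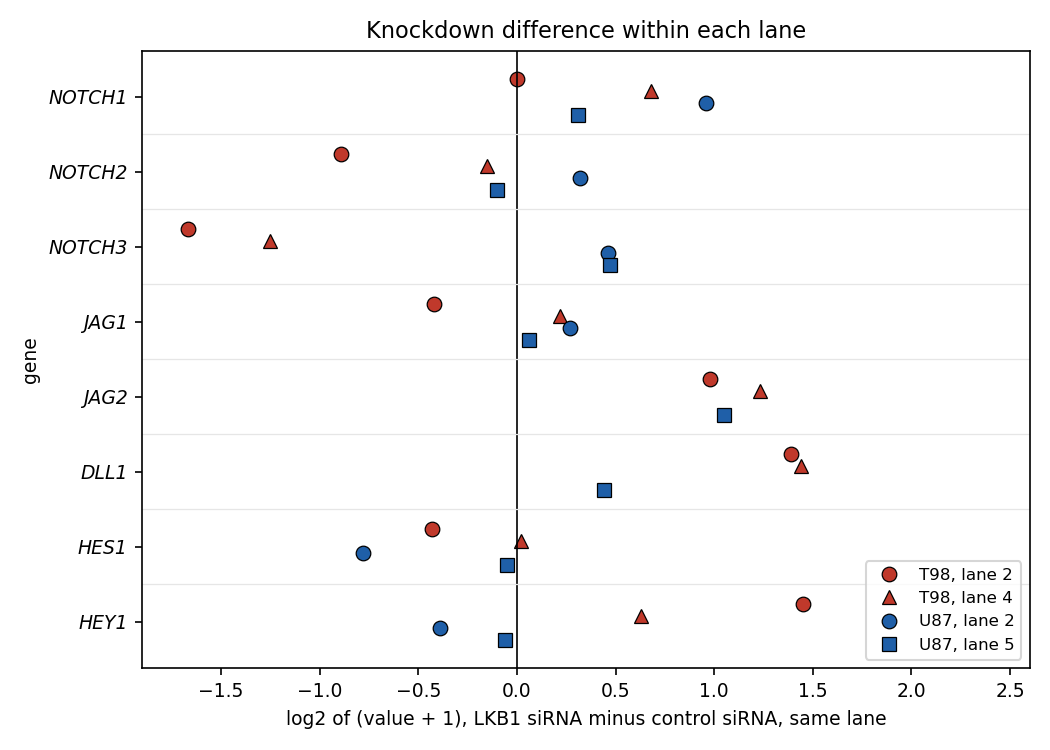
Horizontal axis, log2 of (value + 1) with LKB1 siRNA minus that with control siRNA on the same lane, for the 8 members tested (rows), with colour for the line and marker for the lane. Pairs in which both libraries had 3 reads or fewer are left out (DLL1 and JAG2 in U87 on lane 2). NOTCH3 lies left of 0 in T98 and right of it in U87, and HEY1 the other way round, though nearly at 0 in U87 on lane 5 (−0.06).

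In T98, the LKB1 siRNA and control siRNA libraries did not overlap for 4 of the 8 members tested, 3 higher (JAG2, DLL1 and HEY1) and 1 lower (NOTCH2), where 41% of all genes tested did not overlap (20.5% higher and 20.5% lower). In U87 this was so for 2 of 8, NOTCH1 and, at 3 to 5 reads, DLL1, both higher, where 37.8% of all genes did not overlap (17.6% higher and 20.2% lower). The sign was the same on both T98 lanes for 5 of 8 members, against 72.8% of all genes, and on both U87 lanes for 7 of 8, against 73.1%, where DLL1 and JAG2 rest on few reads. The median log2 difference of the 8 members was 0.12 in T98, against 0.02 over all genes, and 0.26 in U87, against 0. JAG2 reached the value of 10 needed for testing only with LKB1 siRNA, at 11.6 and 21.5 in T98 and 18.9 in U87. Its direction was thus favoured by the filter, and its place in these counts and medians is no support.

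NOTCH3 and HEY1 were the 2 of 8 members whose differences had opposite signs in the lines on both lanes of each, a pattern met by 11.5% of all genes tested. For HEY1 the U87 pair on lane 5 was nearly level (−0.06). Averaged over lanes, the T98 difference minus the U87 difference was −1.92 for NOTCH3 and 1.27 for HEY1. The SE was 1.20 for NOTCH3 and 0.79 for HEY1 without the lane term, and 0.23 and 0.32 with it. These genes were chosen on these comparisons, so neither SE stands for a test.

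The control siRNA libraries show how the lines differ before any silencing. DLL1 was much higher in T98, with 65 and 135 reads (lanes 2 and 4) against 3 and 3 in U87 (lanes 2 and 5), a ratio of 21.9 (95% exact interval 7.16 to 109) on lane 2 and of 44.8 (15.0 to 220) between lanes 4 and 5. HEY1 was also higher in T98, by log2 differences of 0.33 on lane 2 and 2.79 between lanes 4 and 5. NOTCH3 was lower in T98 in both pairings (−1.11 and −1.23), as was NOTCH1 (−0.12 and −0.79). JAG1 was nearly level, at −0.01 and 0.19. NOTCH2 was level on lane 2 (0.02) and lower in T98 between lanes 4 and 5 (−1.19), and HES1 differed by 0.10 and 0.81. The lines' control groups did not overlap for 3 of 8 members, DLL1 and HEY1 higher in T98 and NOTCH1 lower, where 71.6% of all genes did not overlap (35.7% higher and 35.9% lower). DLL1 reached the value needed for testing only in T98 libraries. Its direction between the lines was thus favoured by the filter, and its place in this count is no support. The intervals of its ratios cover counting error only. The second pairing sets lane 4 against lane 5, so line and lane cannot be told apart there.

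Ordered per kilobase, NOTCH2 came first in every group and the order below it differed between the groups. In T98 LKB1 siRNA, NOTCH2 averaged 680 ± 148 per kilobase (SD, n = 2), HEY1 491 ± 150, JAG1 178 ± 20.4, HES1 141 ± 22.8, DLL1 80.3 ± 35.2, NOTCH1 74.3 ± 22.2 and NOTCH3 23.4 ± 18.8. In T98 control siRNA, NOTCH2 averaged 969 ± 142, HEY1 262 ± 173, JAG1 192 ± 37.7, HES1 163 ± 9.91, NOTCH3 59.8 ± 39.0, NOTCH1 57.4 ± 1.88 and DLL1 29.8 ± 12.5. In that order, HEY1 and JAG1 differed by less than the SD of HEY1, JAG1 and HES1 by less than that of JAG1, and NOTCH3 and NOTCH1 by less than that of NOTCH3. DLL1 was above NOTCH3 in T98 LKB1 siRNA and below it in T98 control siRNA. In U87 LKB1 siRNA, NOTCH2 averaged 1590 ± 381, NOTCH3 190 ± 132 and NOTCH1 122 ± 2.24, and in U87 control siRNA NOTCH2 averaged 1520 ± 661, NOTCH3 137 ± 95.1 and NOTCH1 80.4. HEY1 averaged 68.9 in U87 LKB1 siRNA and 83.4 in U87 control siRNA, under JAG1 at 209 in U87 LKB1 siRNA and 182 in U87 control siRNA. By library, HEY1 came next after NOTCH2 in 3 of the 4 T98 libraries, while in T98 control siRNA on lane 2 JAG1 (219) and HES1 (170) stood above HEY1 (140). In U87, JAG1 came next after NOTCH2 in both lane 2 libraries. On lane 5, NOTCH3 (283 with LKB1 siRNA, 205 with control siRNA) stood above JAG1 (151 with LKB1 siRNA, 145 with control siRNA).

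Markers of other cell types also differed between the lines. The summed value of the 4 endothelial markers PECAM1, CDH5, KDR and TEK was 38.3 to 200 in T98 LKB1 siRNA, 47.2 to 203 in T98 control siRNA, 489 to 490 in U87 LKB1 siRNA and 353 to 354 in U87 control siRNA. KDR was at 0 to 2.21 in T98 and at 150 to 269 in U87. The immune markers PTPRC, CD68 and AIF1 summed to 539 to 1128 in T98 and to 12020 to 22940 in U87, nearly all of it CD68, a lysosomal protein, while AIF1 was at 0 to 1.89 and PTPRC at 0.05 to 9.63. The epithelial markers EPCAM, CDH1 and KRT5 summed to 6.48 to 13.3 in T98 and to 62.0 to 96.3 in U87. Their part in the differences between the lines was not tested.

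The rest of the pathway was taken as a list of 61 genes, of which 58 were in the table and 54 were tested. Without a lane term, limma-trend with Benjamini-Hochberg adjustment over 14282 genes called 0 of the 54 in T98 and 0 in U87, where it called 0.028% of all genes in T98 and 0.056% in U87. At an unadjusted p under 0.05 there were 8 in each line, 14.8% of the list, against 10.5% of all genes in T98 and 8.88% in U87. EdgeR on recovered reads called 0 in each line (0.021% of all genes in T98 and 0% in U87), and DESeq2 called 2 in T98 (2.45% of all genes) and 1 in U87 (3.44%). With the lane term, 13 changed in T98, 9 higher and 4 lower with LKB1 siRNA, which is 24.1% of the list, against 15.8% of all genes (8.48% higher and 7.33% lower). In U87, 7 changed, 3 higher and 4 lower, which is 13% of the list, against 11.2% of all genes (5.29% higher and 5.91% lower). The count in T98 was 3 without T98 LKB1 siRNA on lane 2 (1.46% of all genes called) and 3 without T98 control siRNA on lane 2 (1.4%). The count in U87 was 11 without any 1 of the 4 T98 libraries (16.8% to 17% of all genes called). Without any 1 of the 4 U87 libraries, the calls with the lane term were lost in both lines. The T98 differences themselves do not use the U87 libraries. Those libraries enter the T98 calls through the estimate of the spread that all groups share, with its 2 residual degrees of freedom. The median log2 difference over the 54 genes was 0.04 in T98 and 0.06 in U87.

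In the nucleus, RBPJ, the DNA-binding partner of cut Notch, rose in both lines in the fit with the lane term. RBPJ was at 2899 and 4795 in T98 LKB1 siRNA (lanes 2 and 4), against 1958 and 2649 in T98 control siRNA, a log2 difference of 0.71 (SE 0.13, adjusted p = 0.0143 by limma-trend with the lane term, 0.477 without it). In U87, RBPJ was at 3920 and 5362 with LKB1 siRNA (lanes 2 and 5), against 1768 and 2315 with control siRNA, a difference of 1.18 (SE 0.13, adjusted p = 0.00269 by limma-trend with the lane term, 0.195 without it). The T98 and U87 LKB1 siRNA libraries each lay above both controls of their line. TLE4, a Groucho-family corepressor that HES proteins recruit, rose as well, with log2 differences of 1.01 in T98 and 0.58 in U87. The adjusted p was 0.00919 and 0.0481 by limma-trend with the lane term, and 0.198 and 0.472 without it. TLE4 was at 4474 and 3262 in T98 LKB1 siRNA, against 1879 and 1902 in T98 control siRNA, and at 1136 and 998 in U87 LKB1 siRNA, against 790 and 643 in U87 control siRNA. TLE2, of the same family, rose in T98 (1.28, adjusted p = 0.0256 by limma-trend with the lane term, 0.746 without it), with U87 lane differences of −0.21 and 0.40. TLE2 was at 106 and 332 in T98 LKB1 siRNA, against 38.6 and 151 in T98 control siRNA, and without a lane term its difference was 0.31 when the control on lane 2 was left out and 2.26 when the control on lane 4 was. The acetyltransferase gene KAT2B fell in U87 (−0.62, adjusted p = 0.047 by limma-trend with the lane term, 0.811 without it), at 528 and 540 with LKB1 siRNA (lanes 2 and 5), against 887 and 760 with control siRNA. Of the 7 nuclear complex genes, 1 changed in T98 and 2 in U87, and of the 9 corepressor genes, 2 changed in T98 and 1 in U87.

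Among the 9 proteases and their partners, ADAM17, a sheddase that can cut Notch at the cell surface, fell in T98. ADAM17 was at 1682 and 2399 in T98 LKB1 siRNA (lanes 2 and 4), against 5187 and 4666 in T98 control siRNA, a log2 difference of −1.29 (SE 0.17, adjusted p = 0.00678 by limma-trend with the lane term, 0.127 without it). In U87 the ADAM17 within-lane differences were −0.17 and −0.27. APH1B, a subunit of gamma-secretase, fell in both lines, with log2 differences of −0.91 in T98 and −0.79 in U87. The adjusted p was 0.00782 and 0.00926 by limma-trend with the lane term, and 0.388 and 0.503 without it. APH1B was at 456 and 769 in T98 LKB1 siRNA, against 897 and 1390 in T98 control siRNA, and at 1747 and 1556 in U87 LKB1 siRNA, against 3174 and 2570 in U87 control siRNA. The other 7 genes of this list passed in neither line.

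NEURL1B, a ubiquitin ligase that helps ligands enter the cell, changed in opposite directions. It was at 358 and 1198 in T98 LKB1 siRNA (lanes 2 and 4), against 235 and 548 in T98 control siRNA, and at 730 and 411 in U87 LKB1 siRNA (lanes 2 and 5), against 2185 and 1171 in U87 control siRNA. The log2 difference was 0.87 in T98 and −1.54 in U87. The adjusted p was 0.018 and 0.0029 by limma-trend with the lane term, and 0.709 and 0.561 without it. Without a lane term, the T98 difference was 0 when LKB1 siRNA on lane 4 was left out. The knockdown effect on NEURL1B differed between the lines by 2.41 (SE 0.24, adjusted p = 0.0271 by limma-trend with the lane term, 1 without it), as 1 of 54 pathway genes to pass, where 0.476% of all genes passed. Without a lane term 0 of 54 passed that test (0% of all genes), with 3 at an unadjusted p under 0.05 (5.56%, against 2.57% of all genes) and 0 by edgeR or DESeq2, which called 0% and 0.084% of all genes. With the lane term, 3 of 54 passed without T98 LKB1 siRNA on lane 4 and 3 without T98 control siRNA on lane 4 (1.71% and 1.6% of all genes), and 0 when any 1 of the 4 U87 libraries was left out. NEURL, its relative, rose in T98 (1.70, adjusted p = 0.0397 by limma-trend with the lane term, 0.62 without it). NEURL had 11 and 52 reads there with LKB1 siRNA, against 2 and 20 with control siRNA. Without a lane term, the difference of NEURL was 0.38 when the control on lane 2 was left out and 3.01 when the control on lane 4 was.

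Of the 9 genes listed as modulators or for degradation, 2 passed in T98 and 1 in U87, all lower. FBXW7, a ubiquitin ligase subunit that marks the freed Notch fragment for destruction, fell in both lines, by −0.86 in T98 and −0.76 in U87 (log2). The adjusted p was 0.0211 and 0.0332 by limma-trend with the lane term, and 0.317 and 0.344 without it. FBXW7 was at 465 and 472 in T98 LKB1 siRNA, against 1043 and 695 in T98 control siRNA, and at 742 and 651 in U87 LKB1 siRNA, against 1215 and 1140 in U87 control siRNA. NUMB, an adaptor that antagonises Notch, fell in T98 (−0.83, adjusted p = 0.0184 by limma-trend with the lane term, 0.41 without it). The U87 differences of NUMB were −0.10 and 0.22. The other 7 of the 9 genes of this list passed in neither line.

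Of the remaining receptors, ligands and targets, DLK2, a Delta-like protein without the domain that activates Notch, rose in T98 by 1.67. The adjusted p of DLK2 was 0.0235 by limma-trend with the lane term and 0.347 without it. DLK2 had 122 and 114 reads in T98 LKB1 siRNA, against 33 and 42 in T98 control siRNA, and 8 or fewer in U87. HES7, known in mouse from the segmentation clock, was the 1 of the 5 other HES and HEY genes to pass, rising by 2.39 in T98. The adjusted p of HES7 was 0.0123 by limma-trend with the lane term and 0.335 without it. HES7 had 76 and 146 reads in T98 LKB1 siRNA, against 8 and 46 in T98 control siRNA. TNC, a matrix glycoprotein of gliomas, rose in both lines, by 1.36 in T98 and 1.34 in U87. The adjusted p was 0.0109 and 0.00926 by limma-trend with the lane term, and 0.402 and 0.427 without it. TNC was at 2184 and 764 in T98 LKB1 siRNA, against 665 and 380 in T98 control siRNA, and at 103500 and 83520 in U87 LKB1 siRNA, against 31900 and 42340 in U87 control siRNA. NES, the progenitor intermediate filament, rose in T98 (1.01, adjusted p = 0.018 by limma-trend with the lane term, 0.693 without it), at 41.4 and 123 with LKB1 siRNA (lanes 2 and 4), against 16.2 and 74.2 with control siRNA. Without a lane term, the difference of NES was −0.05 when the control on lane 2 was left out. HES5, a classical target in neural progenitors, had no read in any library.

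**Figure D4:**
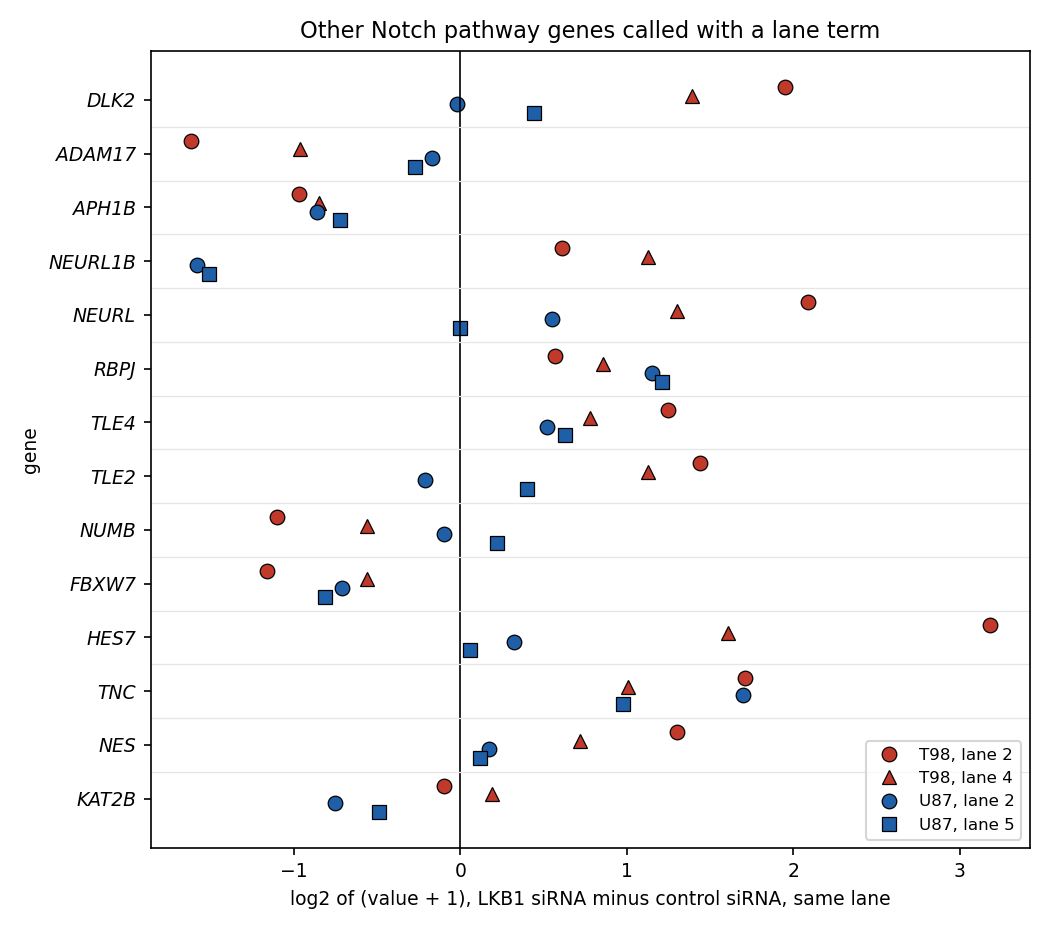
Horizontal axis, log2 of (value + 1) with LKB1 siRNA minus that with control siRNA on the same lane, for pathway genes called in T98 or U87 by limma-trend with a lane term (rows), with colour for the line and marker for the lane. RBPJ, TLE4 and TNC lie right of 0 in all 4 pairs, APH1B and FBXW7 left of it, and NEURL1B on opposite sides in the lines.

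Between the control siRNA groups, limma-trend without a lane term called 19 of the 54 pathway genes, 6 higher and 13 lower in T98, which is 35.2% of the list, against 37.7% of all genes (18.3% higher and 19.5% lower). With the lane term it called 33, 12 higher and 21 lower (61.1% of the list, against 63.3% of all genes, 30.7% higher and 32.6% lower). EdgeR called 19 of the 54 (35.9% of all genes) and DESeq2 22 (41.7%). Without the lane term, leaving out any 1 control library lowered the limma-trend count, most for the lane 2 controls, and leaving out any 1 LKB1 siRNA library raised it. With the lane term, the count fell without T98 control siRNA on lane 2 and without any 1 U87 library. It rose without any 1 of the other T98 libraries. The share of all genes called with the lane term moved the same way. Of the 7 other textbook targets, 4 were lower in T98 and 0 higher, namely TNC, NES, CDKN1A and GFAP. TNC was at 665 and 380 in T98 control siRNA, against 31900 and 42340 in U87 control siRNA (log2 difference −6.19, SE 0.49, adjusted p = 0.000137 by limma-trend). NES was at 16.2 and 74.2 in T98 control siRNA, against 1361 and 1903 in U87 control siRNA (−5.48, SE 0.74, adjusted p = 0.00131 by limma-trend). CDKN1A, a cell cycle inhibitor, was lower in T98 (log2 difference −3.81, adjusted p = 0.000321 by limma-trend), and GFAP, the astrocyte filament, was lower too (−2.74, adjusted p = 0.0257), with 2 and 9 reads in T98, against 24 and 53 in U87. FABP7, a fatty acid binding protein of radial glia, had 0 reads in both T98 controls, against 4 on lane 2 and 21 on lane 5 in the U87 controls, and did not pass without the lane term (adjusted p = 0.0711 by limma-trend, 0.0486 with it).

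Of the other receptors, NOTCH4, best known from endothelium, was lower in T98 control siRNA, at 10.8 and 25.7, against 191 and 85.8 in U87 control siRNA (log2 difference −2.86, adjusted p = 0.0168 by limma-trend). DLK2 was higher in T98 (2.81, adjusted p = 0.00546 by limma-trend), with 33 and 42 reads, against 4 and 5 in U87. Of the 9 proteases and their partners, 4 were lower in T98 without the lane term, among them APH1B (−1.35), PSENEN (−0.83) and FURIN (−0.70). The adjusted p was between 0.0136 and 0.0396 by limma-trend for these 3. With the lane term, 5 were lower and 1 was higher, APH1A (0.93, adjusted p = 0.00191 by limma-trend with the lane term). NUMB (−1.54, adjusted p = 0.00658 by limma-trend) and NEURL1B (−2.15, adjusted p = 0.0364) were lower in T98 as well. Without the lane term, TLE4, NCOR1 and CIR1 were the 3 of 9 corepressors that passed, all higher in T98, by 1.41, 0.94 and 0.94. With the lane term, 3 corepressors were higher in T98 and 2 lower. The lower ones were TLE3 (−1.25, adjusted p = 0.000781 by limma-trend with the lane term) and TLE1 (−1.14, adjusted p = 0.000977). NRARP, a feedback inhibitor that Notch itself induces, had 8 and 14 reads in T98 control siRNA, against 0 and 0 in U87 control siRNA, at least 7.35-fold higher with a floor of 3 reads over the group. HES2 was lower in T98, at 1 and 3 reads, against 15 and 39 in U87 (adjusted p = 0.0233 by limma-trend).

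The tested genes most like each member over the 8 libraries were listed by Pearson r, other members aside. This was done for members with a mean of at least 50, which leaves out JAG2 and HEYL. DLL1 was nearest to BMP7 (r = 0.9967) and DAAM2 (0.9962), and HEY1 to SMAD6 (0.9903) and ISG15 (0.9898). NOTCH3 was nearest to MLLT11 (0.9832) and SYN2 (0.9821), NOTCH2 to PTAR1 (0.9831) and TMPPE (0.9821), and NOTCH1 to BRWD3 (0.9806) and ZNF791 (0.9779). HES1 was nearest to RNASEH2B and MAGT1 (0.9592 each), and JAG1 to FEM1C (0.9324) and SLC37A3 (0.9121). These are descriptions over libraries that share line and lane.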

How the data were processed

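RNA-seq was done on 8 libraries of T98 and U87 cells, 2 in each of 4 groups. Per the submitters' processing notes, TopHat2 2.0.8b, edgeR and hg19/GRCh37 were used. The kit does not mark strand, per the labels' protocols. The deposited signal values equal edgeR pseudo-counts made by the authors, with a common dispersion of 0.06803. When those pseudo-counts were inverted, 100% of the values of each library came out whole (tolerance 0.05 read). Transcript length, another deposited column, served for values per kilobase. The transcript with the highest mean stood for each symbol.

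Genes reaching 10 in at least 2 libraries were tested with limma-trend, two-sided (limma version 3.58.1 under R version 4.3.3), on log2(value + 1), which understates changes of low genes, with all 8 libraries and 4 residual degrees of freedom. Adjustment was by Benjamini-Hochberg over all genes tested, with a threshold of 0.05. A fit with a lane term for each line (2 residual degrees of freedom) is given beside it; there the lines are compared on lane 2. Differences between lanes correlated at 0.72 between the T98 groups, at 0.81 between the U87 groups and at 0.12 to 0.18 between lines, and lanes come from the deposited column names. Alternatives were edgeR 4.0.16 and DESeq2 1.42.0 on recovered reads, pseudocounts of 5 and 0.5, no filter, and each library left out.

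Members and lists were chosen with earlier results of these data known. In each comparison the text names pathway genes passing without the lane term and, with it, up to 2 higher and 2 lower per list; 1 that met this rule is not reported here. The members enter the fits with all genes, and no test of them is given. POGLUT1, MFNG and MIB2 were not analysed here. The fits were also run on simulated reads with known differences and a lane shift shared by both groups of a line. That run required only that median differences were recovered, so it is no check of the calls in these data.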

Additional observations from a re-analysis of the deposited data

Results flagged for a closer look

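NOTCH3 had opposite knockdown differences in the lines: every T98 lane pair was negative and every U87 lane pair positive, and the mean T98 difference minus the mean U87 difference was −1.92 on the log2 scale. HEY1 had the reverse signs, at 1.45 and 0.63 in the T98 lane pairs and −0.39 and −0.06 in the U87 lane pairs, with a difference of 1.27. The U87 pair on lane 5 (−0.06) was nearly level. Because these genes were chosen on these comparisons, no test is given for either, and the difference was not tested here.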

How the results depend on the processing

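Libraries pair by lane within a line, and the lane term, which acts as a replicate block, changed every count of other pathway genes called: 13 against 0 in T98, 7 against 0 in U87, 1 against 0 for the difference between the lines and 33 against 19 for the control groups. DESeq2 gave 2 in T98 and 1 in U87. Leaving out 1 library without the lane term gave 9 to 22 for the control groups (9 without T98 control siRNA on lane 2, 11 without U87 control siRNA on lane 2) and 0 to 0 for each knockdown comparison and for the difference. Pseudocounts, the filter and edgeR kept all 4 counts within 1.5 times. Signs turned when a library was left out for NEURL1B in T98 (0 to 1.74, 0 without LKB1 siRNA on lane 4), NES in T98 (−0.05 to 2.08), and DTX3 (−0.99 to 0.19) and HES7 (−1.87 to 0.34) between the control groups, the last 3 without T98 control siRNA on lane 2. The cause was not tested. With 2 libraries per group, depth limits JAG2, HEYL and DLL1 in U87, whose reads are few.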
